A study of Mus musculus with 12 samples.

Results

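The NMDA receptor subunit genes of mouse prefrontal cortex were examined in adult mice exposed to cocaine, or to saline, during adolescence. The 6 genes, Grin1, Grin2a, Grin2b, Grin2c, Grin2d and Grin3a, were taken by name from a table of 28842 genes, and all 6 were among the 13016 genes that passed the filter on low values (a mean of at least 1 FPKM, a level corrected for gene length and sequencing depth). NMDA receptors are ion channels opened by glutamate together with a co-agonist, glycine or D-serine, and their current also depends on membrane voltage through a magnesium block. Each receptor combines the obligatory GluN1 subunit, the product of Grin1, with GluN2 subunits, the products of Grin2a to Grin2d, or GluN3 subunits, and the GluN2 subunits set how long the channel stays open and which scaffolds hold it. In the developing cortex GluN2B is joined by a growing share of GluN2A, and for that reason the Grin2a to Grin2b ratio is often given as a measure of synapse maturity.

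The cocaine group held 6 libraries from wild-type male C57BL/6J mice, an inbred laboratory strain, given cocaine injections of 15 mg/kg between postnatal days 28 and 42. The saline group held 6 libraries from mice of the same strain, sex and genotype given saline injections over the same days. Mice of both groups were then treated alike: a pre-test on day 75, 1 mg/kg cocaine before conditioned place preference training on days 76 and 77, and a test on day 78, with tissue taken 30 to 60 min after it. Place preference measures how strongly an animal seeks a compartment paired with a drug. The comparison is therefore of adolescent cocaine with adolescent saline in mice that had all received cocaine as adults, and the series title states an interest in drug sensitivity in adulthood. It is not stated whether every library is a different mouse, and the p-values therefore refer to the spread among the libraries sequenced, which may be technical in part. Some label fields name a mesenchymal stem cell line, and another gives a time tag, day 0 for odd and day 5 for even replicate numbers; neither was used to form groups.

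Each library held between 16.7 and 19.9 M recovered reads. The labelled tissue was checked by its markers: Slc17a7, the vesicular glutamate transporter of cortical excitatory neurons, averaged 372 ± 41.0 FPKM in cocaine libraries and 364 ± 34.1 FPKM in saline libraries (SD, n = 6 each). Of the 9 marker lists, the oligodendrocyte list varied most among those with all members tested: its summed level ranged from 539 to 2190 FPKM in cocaine libraries and from 356 to 2641 FPKM in saline libraries. All 12 of its genes were lower on average in cocaine libraries, where 53.7% of all genes tested were higher, and 0 passed the adjusted threshold. The direction was not particular to this list: all 8 oligodendrocyte precursor genes and 9 of 11 microglia genes were lower too. Only the excitatory neuron list had more genes higher than lower, 7 of 10. Fewer cells of a type and less RNA per cell cannot be told apart in RNA from whole tissue. In the other 8 lists 0 genes passed the adjusted threshold either. The highest gene of the interneuron list, Sst, averaged 507 ± 123 FPKM in cocaine libraries and 484 ± 126 FPKM in saline libraries, that of the astrocyte list, Aldoc, 181 ± 9.23 FPKM in cocaine and 182 ± 28.1 FPKM in saline, and that of the oligodendrocyte list, Mbp, 304 ± 148 FPKM in cocaine and 403 ± 257 FPKM in saline. The highest genes of the lists for oligodendrocyte precursors (Olig1), microglia (C1qa), endothelium (Cldn5) and striatal neurons (Ppp1r1b) averaged between 31.9 and 80.7 FPKM in either group. Saline 5 stood apart by Ttr, a choroid plexus gene, at 536 FPKM.

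All 6 genes lie on the minus strand of GRCm38. Grin1 (ENSMUSG00000026959) is at chr2:25291181-25319187, Grin2a (ENSMUSG00000059003) at chr16:9567898-9995560 and Grin2b (ENSMUSG00000030209) at chr6:135713233-136173511. Grin2c (ENSMUSG00000020734) is at chr11:115249169-115267243, Grin2d (ENSMUSG00000002771) at chr7:45831883-45878378 and Grin3a (ENSMUSG00000039579) at chr4:49661611-49845744. Their transcripts fall into kinds that the choice of genes did not use. Grin2b, Grin2a and Grin3a have long exon sets, of 24842, 17933 and 12275 bases in the deposited gene lengths, against a median of 4121 bases over all genes tested. Grin2d, Grin2c and Grin1 have transcripts rich in G and C, at 65.0%, 62.1% and 59.4% of the bases of the longest transcript, against a median of 49.9%. The longest transcripts of Grin3a, Grin2b and Grin2a hold 49.2%, 45.7% and 44.8% G and C.

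RefSeq promoter windows of 300 bases (250 before the start and 50 after it, GRCm38.p6) were found for 3 of the 6 genes. The windows belong to Grin1, Grin2c and Grin2d, and none was found for Grin2a, Grin2b or Grin3a. Whether the windows bear on the expression values was not tested, and they are shown for reference only. Each is written 5′ to 3′ along the gene's own strand, and capitals mark GGGCGG, a GC box motif searched on both strands.
Grin1, minus strand, chr2:25319138-25319437: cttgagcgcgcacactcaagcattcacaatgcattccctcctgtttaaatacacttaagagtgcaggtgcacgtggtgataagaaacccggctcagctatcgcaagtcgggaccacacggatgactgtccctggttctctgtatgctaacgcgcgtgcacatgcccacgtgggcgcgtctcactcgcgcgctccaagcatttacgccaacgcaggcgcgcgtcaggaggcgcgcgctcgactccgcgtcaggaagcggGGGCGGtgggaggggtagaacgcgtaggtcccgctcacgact
Grin2c, minus strand, chr11:115267194-115267493: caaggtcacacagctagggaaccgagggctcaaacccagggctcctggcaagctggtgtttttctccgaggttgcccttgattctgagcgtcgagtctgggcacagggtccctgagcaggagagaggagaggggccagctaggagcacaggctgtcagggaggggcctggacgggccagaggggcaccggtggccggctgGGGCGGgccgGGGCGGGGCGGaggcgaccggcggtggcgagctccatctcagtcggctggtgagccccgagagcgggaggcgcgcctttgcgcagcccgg
Grin2d, minus strand, chr7:45866632-45866931: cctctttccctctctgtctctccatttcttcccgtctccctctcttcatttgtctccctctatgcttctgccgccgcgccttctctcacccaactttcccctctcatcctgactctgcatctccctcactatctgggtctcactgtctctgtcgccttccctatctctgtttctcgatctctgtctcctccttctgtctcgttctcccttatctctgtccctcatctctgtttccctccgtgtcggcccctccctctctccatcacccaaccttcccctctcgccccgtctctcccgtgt
The Grin2c window held 3 matches, a pair of them overlapping, the Grin1 window held 1 and the Grin2d window 0. Among all 32851 windows of this length in the table, 35.7% held the motif at least once. G and C made up 70.0% of the Grin2c window, 60.7% of the Grin1 window and 56.0% of the Grin2d window, against a median of 52.7% over all windows. The Grin1 window held 33 CpG dinucleotides, against 22 for Grin2c and 12 for Grin2d. The RefSeq start of Grin2d lies inside the gene's GENCODE span, so its window is not that of the outermost start.

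No NMDA receptor gene was called as different after adolescent cocaine: 0 of 6 passed an adjusted p of 0.05 in limma with Benjamini-Hochberg adjustment over all genes tested (adjusted p = 1.00 for each). That threshold was passed by 0 of 13016 genes, or 0.0%, so the members' count equals the background. At an unadjusted p under 0.05, limma called 149 genes (1.14%), and no member was among them. Count tests on the recovered reads called no member either: edgeR called 0.0% of its genes at the adjusted and 1.58% at the unadjusted threshold, and DESeq2 0.0104% and 1.48%. Cocaine and saline values did not overlap for 10 of 13016 genes (0.0768%), and they overlapped for each of the 6 members. What the libraries do show is how tightly each gene can be bounded, and this differed widely between the subunits. Values below are normalised reads, meaning reads divided by the authors' size factor of the library and not by gene length, and each difference is the cocaine mean minus the saline mean of log2(value + 1), a scale that shrinks the differences of weakly expressed genes.

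**Figure D1:**
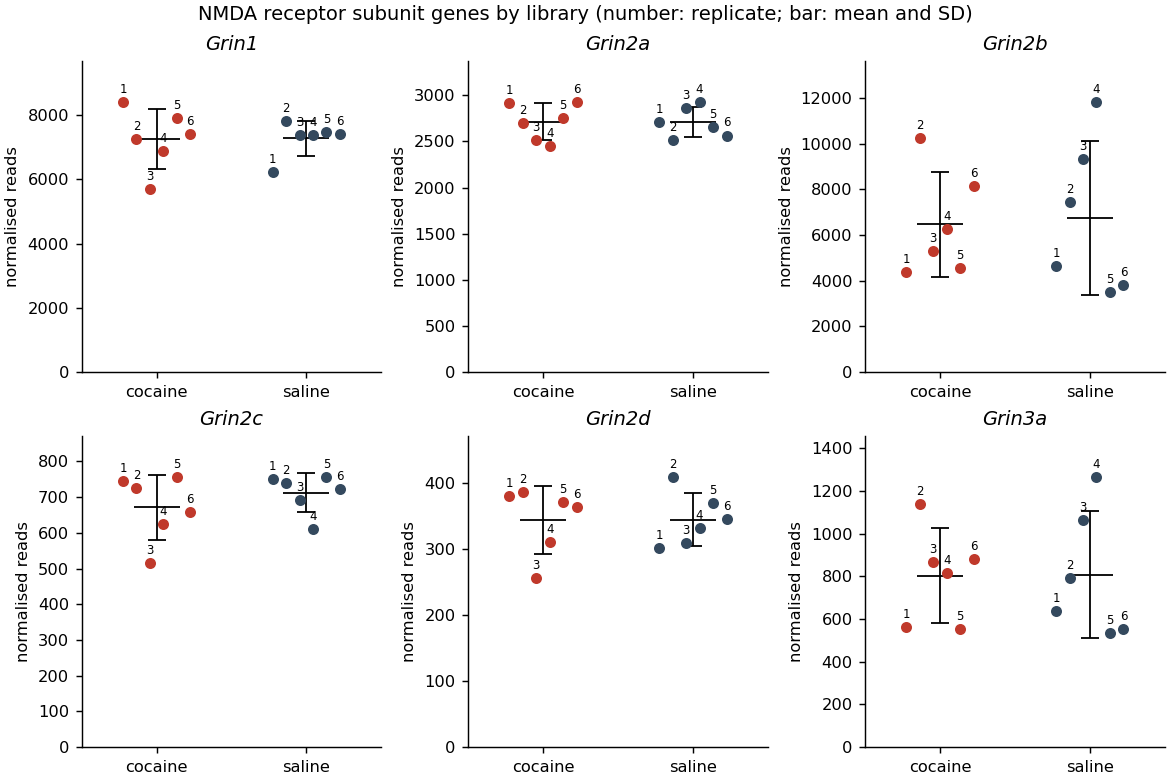
Normalised reads of the 6 genes by library (vertical axes, linear and starting at 0), with cocaine libraries left of saline libraries; each point is a library with its replicate number, and bars are the mean and SD of 6 libraries. The groups overlap for every gene; Grin2a spans 1.19-fold over the 12 libraries and Grin2b 3.40-fold.

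Grin1 encodes GluN1, the subunit that every NMDA receptor contains and that binds the co-agonist. It had 8426, 7245, 5712, 6881, 7919 and 7414 normalised reads in cocaine libraries 1 to 6, against 6219, 7824, 7389, 7380, 7492 and 7409 in saline libraries 1 to 6. Cocaine 1 was the highest and cocaine 3 the lowest of all, while 5 of the 6 saline libraries lay close together and saline 1 lay below them. The means were 7266 ± 934 in cocaine libraries and 7285 ± 549 in saline libraries (SD, n = 6 each). The log2 difference was -0.01 ± 0.10 (SE), with a 95% interval of -0.21 to 0.19, and the exact permutation test gave p = 0.894, two-sided.

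An antisense gene, Grin1os, shares 1307 of the 9700 exon bases of Grin1. Strand use in the counting is not given in the sources used here, so reads of the shared stretch cannot be assigned to one of them. Grin1os had 24.4 to 82.5 normalised reads in cocaine libraries and 34.4 to 101 in saline libraries, far below Grin1 in each of the 12.

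Grin2a encodes GluN2A, the GluN2 subunit of mature synapses that gives fast-closing channels. Its normalised reads were 2920, 2705, 2520, 2454, 2759 and 2932 in cocaine libraries 1 to 6, against 2709, 2515, 2866, 2926, 2659 and 2564 in saline libraries 1 to 6. No library stood out, and both groups covered nearly the same range. Grin2a averaged 2715 ± 198 in cocaine libraries and 2707 ± 163 in saline libraries (SD, n = 6 each), and its log2 difference was 0.00 ± 0.07 (exact permutation p = 0.968, n = 6 each). It was the most tightly measured of the 6, with an SE smaller than that of all but 3.63% of the genes tested. The 95% interval, -0.15 to 0.15 on the log2 scale, corresponds to 0.902-fold to 1.11-fold.

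Grin2b encodes GluN2B, the subunit that prevails early in cortical development and gives slowly closing channels. Cocaine libraries 1 to 6 had 4396, 10258, 5298, 6260, 4535 and 8142 normalised reads, against 4646, 7455, 9330, 11854, 3486 and 3807 in saline libraries 1 to 6. High libraries (cocaine 2 and 6, saline 2 to 4) and low ones (cocaine 1 and 5, saline 1, 5 and 6) occurred in both groups. The means were 6481 ± 2307 in cocaine libraries and 6763 ± 3375 in saline libraries, and the spread within a group, 35.6% of the mean in cocaine and 49.9% in saline, was the widest of the 6 genes. The log2 difference was 0.02 ± 0.31, with an exact permutation p of 0.959 (n = 6 each). Its 95% interval, -0.64 to 0.68, or 0.643-fold to 1.60-fold, is wider than that of Grin2a, and its SE exceeded that of 93.7% of genes tested. The sign of the difference was not stable: it was -0.06 in DESeq2 and -0.05 in edgeR. With a covariate chosen after seeing the data, the long-transcript score described further on, the difference was 0.11 with a 95% interval of -0.04 to 0.27 (limma, adjusted p = 0.999).

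Grin2c encodes GluN2C, a subunit best known from cerebellar granule cells and also made by astrocytes. It had 516 to 757 normalised reads in cocaine libraries (median 693), against 611 to 756 in saline libraries (median 731). The lowest value was that of cocaine 3, and the whole saline range lay inside the cocaine range. Grin2c averaged 672 ± 91.8 in cocaine libraries and 712 ± 54.8 in saline libraries (SD, n = 6 each). Its log2 difference, -0.09 ± 0.10 with a 95% interval of -0.31 to 0.12, was the largest of the 6 in size and stayed within the spread of libraries (exact permutation p = 0.390, n = 6 each).

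Grin2d encodes GluN2D, a subunit with very slow closing that in the forebrain is known from interneurons. It had 255 to 386 normalised reads in cocaine libraries (median 368), against 302 to 410 in saline libraries (median 339). Cocaine 3 was again the lowest library. The means were 345 ± 51.4 in cocaine libraries and 345 ± 40.3 in saline libraries (SD, n = 6 each), with a log2 difference of -0.01 ± 0.12 and an exact permutation p of 0.948. Grin2d shares 643 of its 6658 exon bases with Gm45441 on the opposite strand, and reads of that stretch cannot be assigned either.

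Grin3a encodes GluN3A, a subunit that binds glycine, lowers calcium entry and is known from young synapses. Cocaine libraries 1 to 6 had 560, 1140, 868, 815, 554 and 880 normalised reads, against 638, 794, 1063, 1267, 535 and 553 in saline libraries 1 to 6. The libraries that were high or low for Grin2b were largely those that were high or low for Grin3a, and the groups overlapped throughout. Grin3a averaged 803 ± 221 in cocaine libraries and 808 ± 298 in saline libraries (SD, n = 6 each), and its log2 difference was 0.02 ± 0.23 with a 95% interval of -0.48 to 0.52 (exact permutation p = 0.933, n = 6 each). With the same long-transcript covariate it was 0.09, with a 95% interval of -0.06 to 0.24 (limma, adjusted p = 0.999).

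Leaving out single libraries moved these small differences in either direction without changing a call. Without saline 4 the log2 difference was 0.21 for Grin2b and 0.17 for Grin3a. Leaving out saline 1 gave -0.0556 for Grin1 and -0.0445 for Grin2d. Without saline 5 the log2 difference was -0.14 for Grin2b and -0.0817 for Grin3a, and without cocaine 3 it was 0.0567 for Grin1 and 0.0752 for Grin2d, each with a limma adjusted p of 1.00.

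In the authors' deposited table the log2 fold changes of cocaine over saline for the 6 genes ran from -0.085 for Grin2c to 0.005 for Grin2a. The unadjusted p-values in the authors' deposited table ran from 0.428 for Grin2c to 0.989 for Grin2d, and the adjusted p-value was 1.00 for each of the 6.

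Levels between the genes can be set side by side only per length. Grin1 was the highest at 42.6 ± 4.31 FPKM (mean ± SD over the 12 libraries), followed by Grin2b at 15.0 ± 5.87, Grin2a at 8.58 ± 0.487 and Grin2c at 7.81 ± 0.911 FPKM. Grin3a at 3.70 ± 1.06 FPKM and Grin2d at 2.94 ± 0.373 FPKM were the lowest. Grin1 exceeded Grin2b in 12 of 12 libraries and Grin2c exceeded Grin3a in 12 of 12. Grin2b exceeded Grin2a in 11 of 12, Grin2a exceeded Grin2c in 9 of 12 and Grin3a exceeded Grin2d in 8 of 12, so the neighbours in these 3 pairs changed places between libraries. The order rests on the gene lengths in the deposited table, which join the exons of all isoforms. With the length of the longest GENCODE transcript instead, Grin1 stood at 96.6 FPKM and Grin2b at 15.5, and Grin2b exceeded Grin2a (10.5 FPKM) in 8 of 12 libraries and Grin2c (8.03 FPKM) exceeded Grin3a (6.07 FPKM) in 8 of 12. By that length Grin2a exceeded Grin2c in 12 of 12 libraries and Grin3a exceeded Grin2d in 12 of 12. Which neighbours changed places therefore depended on the length used.

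The Grin2a to Grin2b ratio, taken within a library from values per length, did not differ between the groups beyond their spread. It was 0.920, 0.365, 0.659, 0.543, 0.843 and 0.499 in cocaine libraries 1 to 6, against 0.808, 0.467, 0.426, 0.342, 1.06 and 0.933 in saline libraries 1 to 6. Grin2a exceeded Grin2b per length only in saline 5, and both groups held libraries near each end of the range. The ratio averaged 0.638 ± 0.212 in cocaine libraries and 0.672 ± 0.299 in saline libraries (SD, n = 6 each). The log2 difference was -0.02, with a 95% interval of -0.79 to 0.76 from inversion of the exact permutation test, and p = 0.961 (exact, two-sided, where the smallest possible p is 0.00216). Without saline 5 the log2 difference of the ratio was 0.14 (exact permutation p = 0.675). Between single libraries the ratio differed by up to 3.09-fold, and in undivided reads it averaged 0.461 ± 0.153 in cocaine libraries and 0.485 ± 0.216 in saline libraries. Within the labels' time tags the log2 difference was 0.16 among day 0 libraries (exact permutation p = 0.8) and -0.20 among day 5 libraries (exact permutation p = 0.9), each of 3 cocaine and 3 saline libraries, where no p under 0.1 can be reached.

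**Figure D2:**
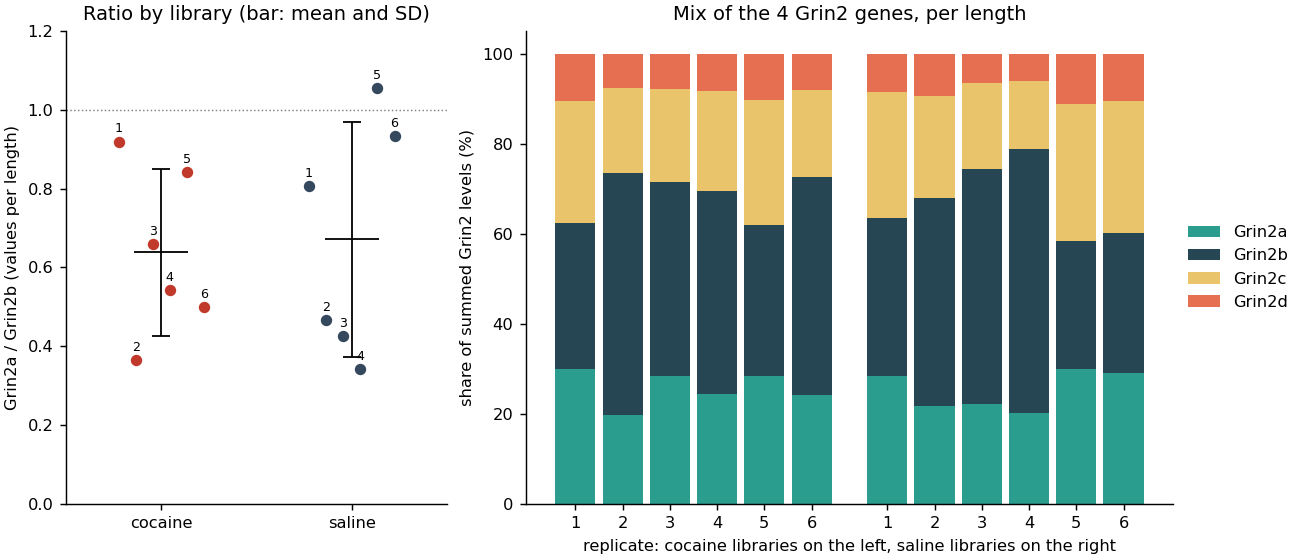
Left, the Grin2a to Grin2b ratio of values per length in each library (points with replicate numbers, bars for mean and SD of 6), from 0.342 in saline 4 to 1.06 in saline 5, with both groups overlapping. Right, the share in percent of each Grin2 gene in their summed level per length, by library, with cocaine libraries on the left; the Grin2b share runs from 28.4% to 58.8%.

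The mix of the 4 Grin2 genes was likewise alike on average and variable between libraries. Grin2b made up 42.8 ± 8.37% of their summed level per length in cocaine libraries (32.5% to 53.9%) and 41.99 ± 12.3% in saline libraries (28.4% to 58.8%). Grin2a made up 25.8 ± 3.79% in cocaine libraries and 25.2 ± 4.38% in saline libraries. For Grin2c the shares were 22.7 ± 3.88% in cocaine and 24.04 ± 6.18% in saline, and for Grin2d 8.75 ± 1.30% in cocaine and 8.74 ± 2.10% in saline (SD, n = 6 each). Grin1 stood at 1.28 ± 0.234 times the summed Grin2 level in cocaine libraries and 1.26 ± 0.255 times in saline libraries. With the length of the longest GENCODE transcript, a choice made after seeing the data, these ratios were 2.63 ± 0.462 in cocaine libraries and 2.60 ± 0.502 in saline libraries (SD, n = 6 each).

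Across the libraries Grin2b and Grin3a varied together in both treatment groups, and of the 3 pairs among Grin1, Grin2c and Grin2d, 2 passed the threshold. In all, 39 relations were computed on log2(value + 1) over the 12 libraries, 15 pairs of members and 24 of a member with the score of a marker list, and 7 passed an adjusted p of 0.05 by Pearson's r (permutation test, Benjamini-Hochberg over the 39), of which 3 also did so by Spearman's rho.

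**Figure D3:**
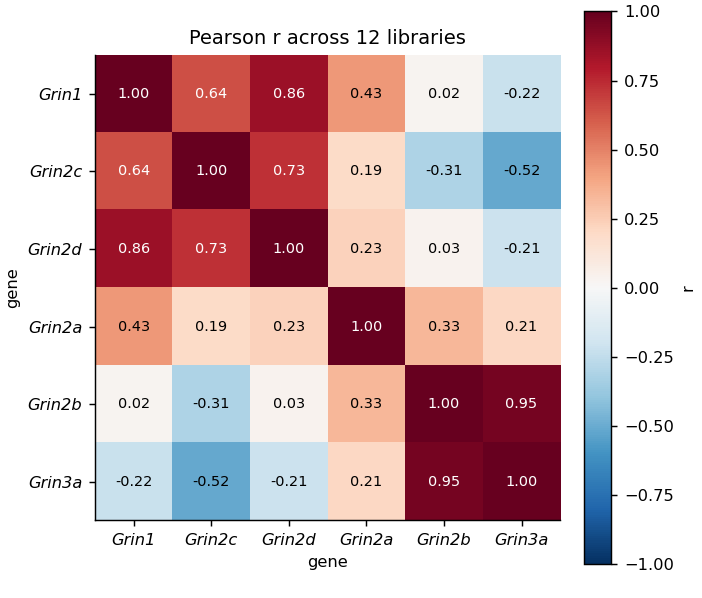
Pearson's r between the 6 genes over the 12 libraries, on log2(value + 1), with colour from blue (-1) to red (1). Grin2b and Grin3a stand at 0.95, Grin1 and Grin2d at 0.86 and Grin2c and Grin2d at 0.73; the r of Grin2a with the other 5 lies between 0.19 and 0.43.

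Grin2b and Grin3a had r = 0.95 (p = 1e-05, the smallest that 100000 resamples can give, adjusted p = 0.00039, permutation test) and rho = 0.97 (adjusted p = 0.00039, permutation test). The relation was present within cocaine libraries (r = 0.90, exact permutation p = 0.0264, n = 6) and within saline libraries (r = 0.99, exact permutation p = 0.00139, n = 6). Without cocaine 2 and saline 4, the libraries farthest from the median of Grin2b, r was 0.92. Within the labels' time tags r was 0.91 among day 0 and 0.98 among day 5 libraries (exact permutation p = 0.00278 each, n = 6 each). The genes lie on different chromosomes, and both have long exon sets.

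Grin1 and Grin2d had r = 0.86 (p = 0.0004, adjusted p = 0.0052, permutation test), while rho was 0.74 and missed the threshold (p = 0.00818, adjusted p = 0.0798, permutation test). This relation rested in part on cocaine 3: without that library r was 0.72 (adjusted p = 0.0674, permutation test), and without cocaine 3 and saline 1 it was 0.61 (permutation p = 0.0594). Within groups r was 0.91 in cocaine libraries (exact permutation p = 0.0153, n = 6) and 0.73 in saline libraries (exact permutation p = 0.0861, n = 6). Within time tags it was 0.92 among day 0 libraries (exact permutation p = 0.00139, n = 6) and 0.78 among day 5 libraries (exact permutation p = 0.0625, n = 6). Grin2c and Grin2d had r = 0.73 (p = 0.00773, adjusted p = 0.0464, permutation test) and rho = 0.52 (adjusted p = 0.316), and r dropped to 0.42 without cocaine 3 and saline 4. Within groups that r was 0.96 in cocaine libraries and 0.27 in saline libraries, and within time tags 0.83 among day 0 and 0.79 among day 5 libraries. Leaving out 1 library gave r between 0.44, without cocaine 3, and 0.86, without saline 1, and the pair passed the adjusted threshold in 2 of these 12 sets. Grin1 and Grin2c missed the threshold, with r = 0.64 (p = 0.031, adjusted p = 0.151, permutation test) and rho = 0.59. Their r was 0.94 within cocaine libraries (exact permutation p = 0.00833, n = 6) and -0.20 within saline libraries (exact permutation p = 0.686, n = 6).

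Of the cell type scores, that of the excitatory neuron list moved with the long-transcript pair. Its r was 0.89 with Grin2b (p = 0.00036, adjusted p = 0.0052, permutation test), with rho = 0.87 (adjusted p = 0.0115), and it passed the threshold whichever single library was left out. With Grin3a r was 0.79 (p = 0.0032, adjusted p = 0.0312, permutation test) and rho was 0.84 (adjusted p = 0.016), but the threshold was missed without saline 3, 4, 5 or 6 (highest adjusted p = 0.0763). Within groups the r of Grin2b with this score was 0.66 in cocaine libraries (exact permutation p = 0.153, n = 6) and 0.97 in saline libraries (exact permutation p = 0.00417, n = 6). Within time tags it was 0.87 among day 0 libraries (exact permutation p = 0.0306, n = 6) and 0.94 among day 5 libraries (exact permutation p = 0.00417, n = 6), and for Grin3a 0.69 (exact p = 0.135) and 0.86 (exact p = 0.0292) in the same order. The 10 genes of the list summed to 540 to 668 FPKM in cocaine libraries and 525 to 636 FPKM in saline libraries, with 7 of 10 higher and 3 lower on average in cocaine libraries and 0 past the adjusted threshold. Their part in the spread of Grin2b was not tested.

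The other relations past the threshold were weaker. Grin1 and the astrocyte score had r = -0.74 (p = 0.00466, adjusted p = 0.0363, permutation test), and r lay between -0.82 and -0.66 over the 12 sets that leave out 1 library, 4 of which passed the threshold. With scaling to equal sums it was -0.67 (adjusted p = 0.0774, permutation test), and within time tags -0.90 among day 0 libraries (exact permutation p = 0.0139, n = 6) and -0.43 among day 5 libraries (exact permutation p = 0.399, n = 6). Grin2a and the oligodendrocyte score had r = -0.73 (p = 0.00832, adjusted p = 0.0464, permutation test), between -0.82 and -0.68 over the same 12 sets, 2 of which passed the threshold. With scaling to equal sums it was -0.50 (adjusted p = 0.274, permutation test), and within time tags -0.71 among day 0 libraries (exact permutation p = 0.133, n = 6) and -0.83 among day 5 libraries (exact permutation p = 0.0153, n = 6). By rho neither passed (adjusted p = 0.0899 and 0.095 in that order, permutation test). The astrocyte list summed to 393 to 472 FPKM in cocaine libraries and 394 to 500 FPKM in saline libraries, with 4 of 10 genes higher and 6 lower in cocaine libraries. Between Grin2b and the oligodendrocyte score the groups gave unlike values: r was 0.33 in cocaine libraries (exact permutation p = 0.517, n = 6) and -0.92 in saline libraries (exact permutation p = 0.0125, n = 6), and over all 12 it was -0.55 (adjusted p = 0.258, permutation test). Such a change of sign was not particular to this pair. For the oligodendrocyte score with Grin3a r was 0.57 in cocaine and -0.95 in saline libraries. With Grin2c it was -0.67 in cocaine and 0.90 in saline libraries. Over all 12 libraries neither passed the threshold. The differences between the groups in these r were not tested.

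After the values had been seen, the libraries were also scored by transcript length and base composition. The long-transcript score is the median log2 deviation, in a library, of the 1191 other tested genes with at least 10000 exon bases, and the GC score is the same for the 3075 other tested genes whose longest transcript holds at least 55% G and C. The long-transcript score ran from -0.20 to 0.21 in cocaine libraries and from -0.24 (saline 5) to 0.26 (saline 4) in saline libraries, so that both groups held libraries at each end. The time tag moved with this score in the cocaine group: the 3 day 5 libraries scored 0.02 to 0.21 and the 3 day 0 libraries -0.20 to -0.04, and Grin2b stood at 6260 to 10258 normalised reads in the day 5 and 4396 to 5298 in the day 0 libraries. In the saline group scores ran from -0.18 to 0.26 in day 5 and from -0.24 to 0.20 in day 0 libraries, which overlap. The part of the tag was not tested beyond the values given within each tag. Together the members and the ratio gave 14 relations with the 2 scores, adjusted as a family of their own, and 7 passed an adjusted p of 0.05 by r and 9 by rho (permutation test). Those of the ratio are not separate from those of Grin2a and Grin2b, from which it is formed.

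**Figure D4:**
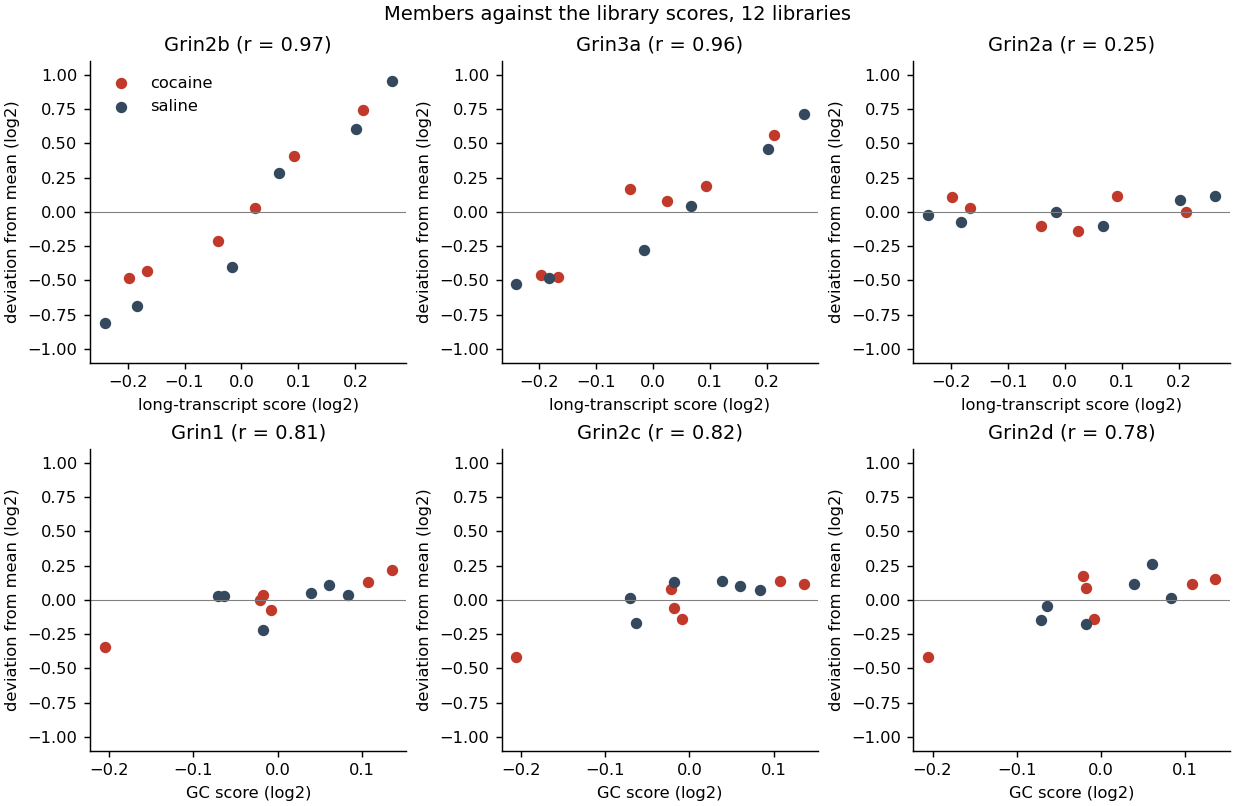
Deviation of each gene from its mean over the 12 libraries (vertical axes, log2) against a score of the same library (horizontal axes, log2): the long-transcript score above for Grin2b, Grin3a and Grin2a, the GC score below for Grin1, Grin2c and Grin2d. Each point is a library, cocaine in red and saline in dark blue; Grin2b and Grin3a lie along a line in both groups, Grin2a has r = 0.25 over all 12, and the lowest GC score is that of cocaine 3.

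Grin2b varied with the long-transcript score, with r = 0.97 (p = 1e-05, adjusted p = 4.67e-05, permutation test) and rho = 0.99. The r was 0.98 within cocaine libraries (exact permutation p = 0.00139, n = 6) and 0.98 within saline libraries (exact permutation p = 0.00278, n = 6), and 0.96 without saline 4 and 5. Within time tags it was 0.94 among day 0 libraries (exact permutation p = 0.00556, n = 6) and 0.996 among day 5 libraries (exact permutation p = 0.00139, n = 6). Grin3a had r = 0.96 (adjusted p = 4.67e-05, permutation test) and rho = 0.93, with r = 0.91 among day 0 and 0.99 among day 5 libraries. The Grin2a to Grin2b ratio ran the opposite way, at r = -0.97 (adjusted p = 4.67e-05, permutation test) and rho = -0.98, with r = -0.998 within cocaine libraries and -0.97 within saline libraries. Grin2b is the ratio's denominator and spans 3.40-fold over the 12 libraries, against 1.19-fold for Grin2a. The ratio's r therefore largely repeats, with the sign turned, that of Grin2b with the score. A line on this score alone, without the group, was also fitted to the log2 ratio and taken off. The group difference of what remained was -0.11 (exact permutation p = 0.165).

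Grin2a is longer than Grin3a, and its r with the score was 0.25 (p = 0.416, adjusted p = 0.53, permutation test). Within groups it was -0.18 in cocaine libraries (exact permutation p = 0.7, n = 6) and 0.68 in saline libraries (exact permutation p = 0.157, n = 6), so a relation within saline libraries could not be told from none at this number. Over the 1191 other long genes the median r with the score was 0.82, and 972 of them (81.6%) had a higher r than Grin2a, while 77 had a higher r than Grin2b and 132 a higher r than Grin3a. This is a description across genes, which are not independent replicates and share the libraries that make up the score.

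For the GC-rich members and the GC score, r over the 12 libraries was 0.81 for Grin1 (p = 0.00165, adjusted p = 0.00462, permutation test), 0.82 for Grin2c (p = 0.00134, adjusted p = 0.00462) and 0.78 for Grin2d (p = 0.00323, adjusted p = 0.00754), with rho of 0.79, 0.65 and 0.63 in the same order. The score is the median of the other GC-rich genes, and the r of those genes with it was not computed. Whether these 3 members stand apart from other GC-rich genes is therefore not known. Cocaine 3 had the lowest score (-0.21) and cocaine 1 the highest (0.14), and without these 2 libraries r was 0.45 for Grin1 (permutation p = 0.194), 0.61 for Grin2c (permutation p = 0.0638) and 0.53 for Grin2d (permutation p = 0.114), so none of the 3 relations passed without them. Within cocaine libraries r was 0.97 for Grin1 (exact permutation p = 0.00694, n = 6), 0.91 for Grin2c (exact permutation p = 0.0167, n = 6) and 0.82 for Grin2d (exact permutation p = 0.0597, n = 6). Within saline libraries it was 0.30 for Grin1 (exact permutation p = 0.719, n = 6), 0.63 for Grin2c (exact permutation p = 0.154, n = 6) and 0.69 for Grin2d (exact permutation p = 0.139, n = 6). The differences between the groups in these r were not tested. Within time tags r was 0.87, 0.86 and 0.96 among day 0 libraries and 0.42, 0.73 and 0.33 among day 5 libraries, for Grin1, Grin2c and Grin2d in that order. Grin3a ran the other way (r = -0.66, p = 0.0175, adjusted p = 0.035, permutation test), also without the same libraries (r = -0.81, permutation p = 0.00629). Grin2b had r = -0.43 (adjusted p = 0.25, permutation test) and rho = -0.65 (adjusted p = 0.0489, permutation test). For Grin2a r was 0.12 over the 12 libraries (adjusted p = 0.735, permutation test). It was 0.59 within cocaine libraries (exact permutation p = 0.218, n = 6) and -0.95 within saline libraries (exact permutation p = 0.00833, n = 6). That difference between the groups was not tested either.

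The genes most like each member were taken from 11336 named protein-coding genes by r over the 12 libraries, after the mean of each group had been taken off. For Grin2b they were Gpr26 and Plxna4 (r = 0.99 each), and for Grin3a Samd8 and Rev3l (r = 0.99 each). For Grin1 they were Mark4 (0.97) and Numbl (0.96), for Grin2d Foxo6 (0.94) and Rxrb (0.93), and for Grin2c Uck1 (0.96) and Fam131c (0.92). Grin2a had no gene as close: its nearest were Runx2 (0.87) and Prdm10 (0.83). Gpr26, Plxna4 and Rev3l have 11571, 14103 and 13293 exon bases, and Samd8 has 7639, all above the median of tested genes, 4121. Runx2, Prdm10, Numbl and Mark4 also lie above that median, at 8837, 9259, 8673 and 4668 exon bases. Below it lie Uck1, Fam131c, Foxo6 and Rxrb, at 2751, 1433, 2615 and 3698. Longest transcripts of Mark4, Foxo6, Rxrb, Uck1 and Fam131c hold between 56.2% and 69.1% G and C, and that of Numbl holds 54.4%.

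Genes that hold, modify, move or act after NMDA receptors were counted in 5 lists. Of 66 listed genes 63 were tested, and 0 passed the adjusted threshold in limma, against the 0.0% of all genes given above. None of the 63 passed an unadjusted p of 0.05 either, which 1.14% of all genes did, 0.676% as higher and 0.469% as lower in cocaine libraries. Signs were mixed, 24 higher and 39 lower, beside 53.7% higher among all genes tested and a median of 0.01.

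Genes listed as scaffolds numbered 13, with 5 higher and 8 lower in cocaine libraries and a median log2 difference of -0.01. Not all of them are known to tie the receptor to the postsynaptic density. Among them Lrrc4c, which encodes a synaptic adhesion protein that binds netrin-G, had 2462 ± 415 normalised reads in cocaine libraries and 2211 ± 448 in saline libraries (log2 difference 0.16 ± 0.14). Tjap1 had 333 ± 52.4 in cocaine libraries and 381 ± 81.6 in saline libraries (-0.18 ± 0.15). Genes listed as kinases and phosphatases of the receptor numbered 14, with 7 in each direction and a median of 0.00. Not all of them encode a kinase or a phosphatase. Ptpn5, which encodes the phosphatase STEP that acts on GluN2B, had 3348 ± 169 normalised reads in cocaine libraries and 3600 ± 313 in saline libraries (-0.10 ± 0.07), and Csnk2a1, a subunit of casein kinase 2, stood at -0.06 ± 0.06.

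Effectors of calcium entry numbered 13, with 6 higher and 7 lower in cocaine libraries and a median of 0.00. Calm2, a calmodulin gene, stood at a log2 difference of 0.10 ± 0.10. Trafficking genes numbered 13, with 4 higher and 9 lower in cocaine libraries and a median of -0.03. Actn2, an actin crosslinker that binds GluN1, had 222 ± 44.1 normalised reads in cocaine libraries and 252 ± 37.9 in saline libraries (-0.19 ± 0.14).

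Co-agonist genes set glycine and D-serine levels. Of 13 listed, 10 were tested, since Dao, Shmt1 and Slc6a5 were below the filter. Of these, 2 were higher and 8 lower in cocaine libraries, with a median log2 difference of -0.07. Slc6a9, the glycine transporter GlyT1, had 339 ± 113 normalised reads in cocaine libraries and 372 ± 71.3 in saline libraries (-0.17 ± 0.19), and Gldc, which encodes glycine decarboxylase, had 375 ± 52.6 in cocaine libraries and 405 ± 35.4 in saline libraries (-0.12 ± 0.10). Each of the 8 genes named from the 5 lists had a 95% interval that includes 0.

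**Figure D5:**
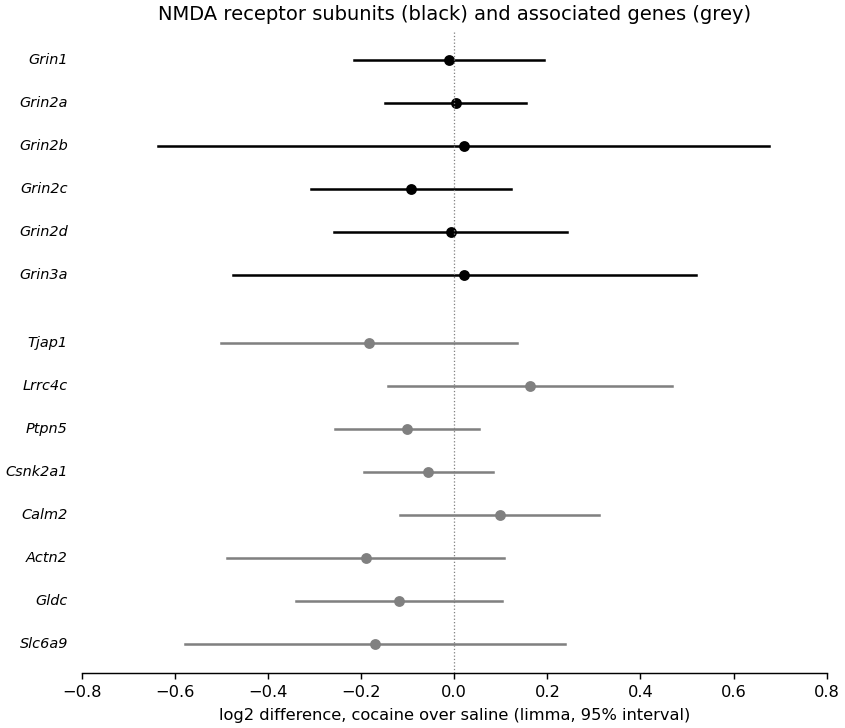
Log2 difference of cocaine over saline (points) with 95% intervals from limma (lines), for the 6 receptor subunit genes in black and for 8 genes of the associated lists in grey, with values as log2(value + 1). All intervals include 0; that of Grin2a, -0.15 to 0.15, is the narrowest of the 6 and that of Grin2b, -0.64 to 0.68, the widest.

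Grin3b, the remaining gene of the family, which encodes GluN3B and is known from motor neurons, was below the filter at a mean of 0.0507 FPKM. Recovered reads were 0 to 8 in cocaine libraries and 1 to 5 in saline libraries. A library with 0 reads allows about 3, counting error only, and reads this few bound a group difference only loosely. The authors' deposited table gave Grin3b a log2 fold change of 0.14 with an unadjusted p-value of 0.857. Grin3b also shares 1059 of its 3296 exon bases with Tmem259 on the opposite strand.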

How the data were processed

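RNA sequencing libraries from prefrontal cortex, 6 per group, were grouped by the treatment label. Per the submitters' processing notes reads were aligned with HISAT2 2.0.5, and hg38 is named there although gene IDs and coordinates are those of mouse GRCm38. No source used here names the read counter or its strand setting. The values per gene and library were deposited as a normalised signal: per the file headers the table has values, group means, gene lengths, log2 fold changes and p-values. The authors divided read counts by 1 size factor per library and not by gene length, since in each library 100% of values came out as whole reads, within 0.01 read, once divided by the smallest step. The table's name says FPKM, a unit the values do not have, so FPKM was computed here from value, length and column sum. Recovered reads were 16.7 to 19.9 M per library, and a count of 0 allows about 3 reads, counting error only. The number of columns not used was 0. For 25 genes a name turned into a date was restored by gene ID.

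The main test was limma 3.58.1 (variance trend, R 4.3.3) on log2(value + 1), two-sided, no covariates, for genes with a mean of at least 1 FPKM, with Benjamini-Hochberg adjustment and a threshold of 0.05. It had been chosen when FPKM was assumed and was kept. Count tests on recovered reads (edgeR 4.0.16 quasi-likelihood, DESeq2 1.42.0) were alternatives, and edgeR called 0 of 16057 genes and DESeq2 3 of 28827. Single genes and the ratio were also given an exact two-sided permutation test of the group labels, whose smallest possible p is 0.00216. Correlations had 100000 resamples over 12 libraries and exact enumeration within groups of 6 (scipy 1.17.1). Only the limma fit without covariates was tested on simulated data, with the same dispersion for every gene and independent libraries. The count tests and the fits with covariates were not tested in this way.

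The members, lists and markers were chosen with earlier results of these data known. Named genes were the 6 members and Grin3b, the 2 genes of each list with the smallest unadjusted p, the 2 most correlated genes of each member and the marker of highest level in each list; 2 of the list genes so named are not reported here. The long-transcript and GC scores and their 14 relations were chosen after seeing the data. Promoters are from RefSeq, and gene spans and exons from GENCODE M21.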

Additional observations from a re-analysis of the deposited data

Results flagged for a closer look

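In 30 groups of 6 libraries examined, 1 sample lay far from the others of its group. Saline 1 had 6219 normalised reads of Grin1, while the other 5 saline libraries lay between 7380 and 7824. The gap to the nearest of them was 0.723 of the group's whole range, above the 95% critical value of Dixon's test for 6 samples. Chance flags about 1 in 20 groups.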

How the results depend on the processing

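Under each alternative tried, 0 of the 6 members passed the adjusted threshold, and the smallest adjusted p for any of them was 0.999. With differences this near 0 the sign was not stable. The log2 difference of Grin2a was -0.0069 with TMM factors and -0.0103 with an oligodendrocyte covariate, the score of that marker list. That of Grin2b was -0.0614 in DESeq2, -0.0548 in edgeR and -0.0458 with the oligodendrocyte covariate, and that of Grin3a was -0.0091, -0.0034 and -0.0179 in the same order. Grin2d turned to 0.0013 in edgeR and to 0.0029 with the GC score as a covariate, which was chosen after seeing the data. With a line on the long-transcript score, also chosen after seeing the data, taken off the log2 ratio, the ratio's difference was -0.11. The ratio's log2 difference was 0.16 within the day 0 tag. The cause was not tested. Leaving out 1 library in turn gave -0.0556 to 0.0567 for Grin1, -0.0195 to 0.0318 for Grin2a, -0.14 to 0.21 for Grin2b, -0.14 to -0.02 for Grin2c, -0.0445 to 0.0752 for Grin2d, -0.0888 to 0.17 for Grin3a and -0.19 to 0.14 for the ratio. DESeq2 called 3 genes where limma called 0, and these were Arc, Nr4a1 and Dusp1, looked up after the values were seen. The number of relations past the threshold was 3 with scaling to equal sums, against 7 in the main analysis, and 3 to 7 without 1 library (3 without saline 3, 4, 5 or 6 and 4 without cocaine 1, 3, 4 or 5). Deviations of same-numbered cocaine and saline libraries had correlations of -0.40 to 0.43 over the 6 numbers. These values cannot settle whether the numbers pair the samples, and the labels do not say. With the replicate number as a block 0 genes were called, and the ratio's difference was -0.02 (exact sign-flip permutation p = 0.938). With a filter of 5 FPKM Grin2d, Grin3a, Tjap1, Actn2 and Slc6a9 fell below it and have no value. Depth was limiting for Grin3b, at 0 to 8 reads. The values within each time tag for correlations were added after seeing the data.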
